A study of Mus musculus with 6 samples.

Results

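The proteasome genes of the neonatal mouse liver were described in pups breastfed by Triclosan (TCS)-exposed or vehicle mothers. Members were all protein-coding genes whose symbol begins with Psma, Psmb, Psmc, Psmd, Psme, Psmf or Psmg followed by a digit, a rule that uses names and no measured value. It found 50 of 21736 protein-coding genes in a table of 51912 genes. Of the 50, 48 reached at least 1 TPM (abundance relative to all transcripts of a pool, corrected for gene length) in at least 3 of the 6 samples and were tested. Livers were taken from C57/B6 mice at 21 days of age. In the vehicle group (3 samples) the mothers received vehicle alone and the pups regular breastmilk. In the TCS group (3 samples) the mothers ate chow with 120 ppm TCS through pregnancy and lactation, although the labels place the TCS in the milk. TCS is an antimicrobial compound of consumer products. Each sample was RNA pooled from 3 mice, and neither the litters in a pool nor the order of the pools is given. Both groups were wild type and were fed by nursing.

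The proteasome is the protease that breaks down most short-lived and damaged proteins of the cell after ubiquitin has been attached to them. Its 20S core is a barrel of 2 outer rings of alpha subunits and 2 inner rings of beta subunits, and the beta 1, beta 2 and beta 5 subunits carry the cutting sites. A 19S regulatory particle caps the barrel: its base holds ATPases that unfold the substrate, and its lid removes the ubiquitin. In cells exposed to interferon the cutting subunits are replaced by the immunoproteasome forms, which favor peptides for antigen presentation. When proteasome activity is short, the transcription factor NRF1 (Nfe2l1) raises the subunit genes together through antioxidant response elements in their promoters.

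Promoter windows are shown for 4 members as examples. These are the constitutive catalytic subunits Psmb5 and Psmb6, the interferon-induced Psmb9 that replaces Psmb6, and Psmd14, the deubiquitinase of the lid. The windows run from 250 bases before to 50 bases after the gene's start in RefSeq on GRCm38.p6, 5′ to 3′ on the gene's own strand. They lie at chr14:54617946-54618245 on the minus strand (Psmb5), chr11:70525107-70525406 on the plus strand (Psmb6), chr17:34187281-34187580 on the minus strand (Psmb9) and chr2:61711444-61711743 on the plus strand (Psmd14). Capitals mark TGACNNNGC in Psmb5 and Psmb6, and CCAAT or its reverse complement in Psmb9 and Psmd14.
Psmb5: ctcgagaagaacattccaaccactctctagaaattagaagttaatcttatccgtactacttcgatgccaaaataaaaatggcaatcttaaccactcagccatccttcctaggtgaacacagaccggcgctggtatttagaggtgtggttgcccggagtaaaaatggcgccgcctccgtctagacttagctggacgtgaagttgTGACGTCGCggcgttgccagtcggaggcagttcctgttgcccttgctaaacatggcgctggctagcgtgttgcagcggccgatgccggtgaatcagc
Psmb6: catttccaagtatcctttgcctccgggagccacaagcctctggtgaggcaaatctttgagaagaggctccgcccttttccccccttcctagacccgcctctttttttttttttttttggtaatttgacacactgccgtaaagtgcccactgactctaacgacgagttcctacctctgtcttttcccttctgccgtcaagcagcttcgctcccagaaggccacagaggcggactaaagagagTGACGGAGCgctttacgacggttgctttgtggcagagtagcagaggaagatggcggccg
Psmb9: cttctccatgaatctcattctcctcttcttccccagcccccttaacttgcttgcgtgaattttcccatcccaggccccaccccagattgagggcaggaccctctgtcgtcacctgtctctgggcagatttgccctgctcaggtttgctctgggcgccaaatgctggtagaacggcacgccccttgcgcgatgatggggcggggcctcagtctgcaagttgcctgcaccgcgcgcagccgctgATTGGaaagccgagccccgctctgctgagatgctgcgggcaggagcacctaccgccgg
Psmd14: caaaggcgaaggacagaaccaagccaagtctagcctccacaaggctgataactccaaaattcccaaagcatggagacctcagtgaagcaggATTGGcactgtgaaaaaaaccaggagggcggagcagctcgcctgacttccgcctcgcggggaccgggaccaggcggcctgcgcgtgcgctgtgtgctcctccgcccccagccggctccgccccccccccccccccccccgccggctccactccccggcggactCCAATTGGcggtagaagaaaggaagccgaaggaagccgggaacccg

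The search covered 3 motifs as exact letters on both strands of the windows, which were given for 41 of the 49 members other than Psmc3ip (44 windows, since a gene can have several starts). The members with no window were Psma8, Psmb1, Psmb2, Psmb7, Psmc3, Psmd3, Psmd7 and Psmg2. TGACNNNGC, the core of the antioxidant response element, stood in 6 of the 44 windows (13.6%) and in 12.4% of all 32851 windows of mouse genes. Its members were Psmb5, Psmb6, Psmc6, Psmd12, Psmd9 and Psme4. The first base of the match lay 47 bases before the start in Psmb5 and 9 bases before it in Psmb6. CCAAT, the box bound by the factor NF-Y, stood in 14 of the 44 windows (31.8%) and in 37.4% of all windows. In Psmd14 the box began 159 bases before and 5 and 8 bases after the start, and the last pair overlap as CCAATTGG. A pair of GAAA half-sites on one strand with 2 bases between them, the core of the interferon-stimulated response element, stood in 5 of the 44 windows (11.4%) and in 3.44% of all windows. The 5 genes were Psmb3, Psmd4, Psmd9, Psme1 and Psmg4, and none of the 3 immunoproteasome genes, all of which had a window, was among them. The Psmb9 window reaches position 34187580, short of the start of its GENCODE locus at 34187764, and the bases around that start were not searched. A match is a description of the letters in the window.

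Read depth cannot be recovered from TPM and counting error is left out. The columns sum to between 999864 and 1000240 TPM. Of all 13325 genes tested, 74.8% had a higher mean in TCS on the log2 scale, with a median log2 fold change (of TPM + 1) of 0.13. Albumin (Alb), the most abundant hepatocyte product, took 9.57, 10.7 and 10.3% of the TPM in vehicle samples 1, 2 and 3 and 8.99, 8.97 and 8.76% in TCS samples 1, 2 and 3. The summed hepatocyte markers (10 of 10 tested) were 141551 to 150646 TPM in vehicle and 123174 to 127940 TPM in TCS, and Alb made up most of these sums. Of the 10 genes, 7 lay below vehicle in every TCS sample, against 4.61% of all genes. The part of the hepatocyte share in the proteasome results was not tested beyond the rescaling given beside them. Leukocyte and Kupffer cell markers (13 genes) summed to 436.7 to 495.2 TPM in vehicle and 425.5 to 555.2 TPM in TCS. Lymphocyte markers (11 genes) summed to 9.43 to 12.4 TPM in vehicle and 8.95 to 12.2 TPM in TCS. The sums of the erythroid markers (7 genes) did not overlap, at 4812 to 5239 TPM in vehicle and 4225 to 4722 TPM in TCS. By gene, 2 of the 7 lay below vehicle in every TCS sample (4.61% of all genes), and Alas2 was slightly higher (log2 fold change 0.03). The part of these markers in the proteasome results was not tested. Pancreatic acinar markers (10 genes) summed to 259.2, 108.0 and 779.8 TPM in vehicle and 10.7, 828.7 and 80.9 TPM in TCS, with Prss2, Cpa1, Pnlip and Cel listed at 0 in TCS sample 1. Xist, the RNA of the inactive X chromosome, was 46.4, 1.80 and 88.3 TPM in vehicle and 0.0144, 98.7 and 44.0 TPM in TCS. The methods state that the pups used were male. Vehicle sample 3 and TCS sample 2 were highest in both. In whole liver, fewer cells of a type and less RNA per cell cannot be told apart.

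Most proteasome genes were higher in the livers of TCS-breastfed mice, each by a small amount. In 40 of the 48 members tested (83.3%) all 3 TCS samples lay above all 3 vehicle samples, against 25.1% of all genes tested and 27.1% of the protein-coding genes among them. Psmd9, an assembly chaperone, was the 1 member with every TCS sample below every vehicle sample, against 4.61% of all genes. The summed TPM of the 50 members was 3130, 3093 and 3233 in vehicle and 3711, 3905 and 3999 in TCS. These sums did not overlap and were 1.23-fold higher in TCS by their means. The median log2 fold change of the 48 members was 0.29, which is 0.16 above that of all genes tested.

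No single member passed the test. At an adjusted p under 0.05 from limma, 0 of the 48 members were higher and 0 lower, against 0.0826% and 0.0901% of all genes. At an unadjusted p under 0.05, 38 members were higher (19.5% of all genes) and 1 was lower (3.5% of all genes). The lowest adjusted p of a member was 0.0558 from limma, for Psmd13. With pools weighted by their quality (limma's array weights), 31 members passed in the higher direction, against 7.55% of all genes. In a further fit protein-coding genes were tested alone, after their TPM were rescaled to the same sum in every pool. There 5 members passed, against 1.28% of the genes in that fit, namely Psmd13, Psmd14, Psmd2, Psmd1 and Psmd12.

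**Figure D1:**
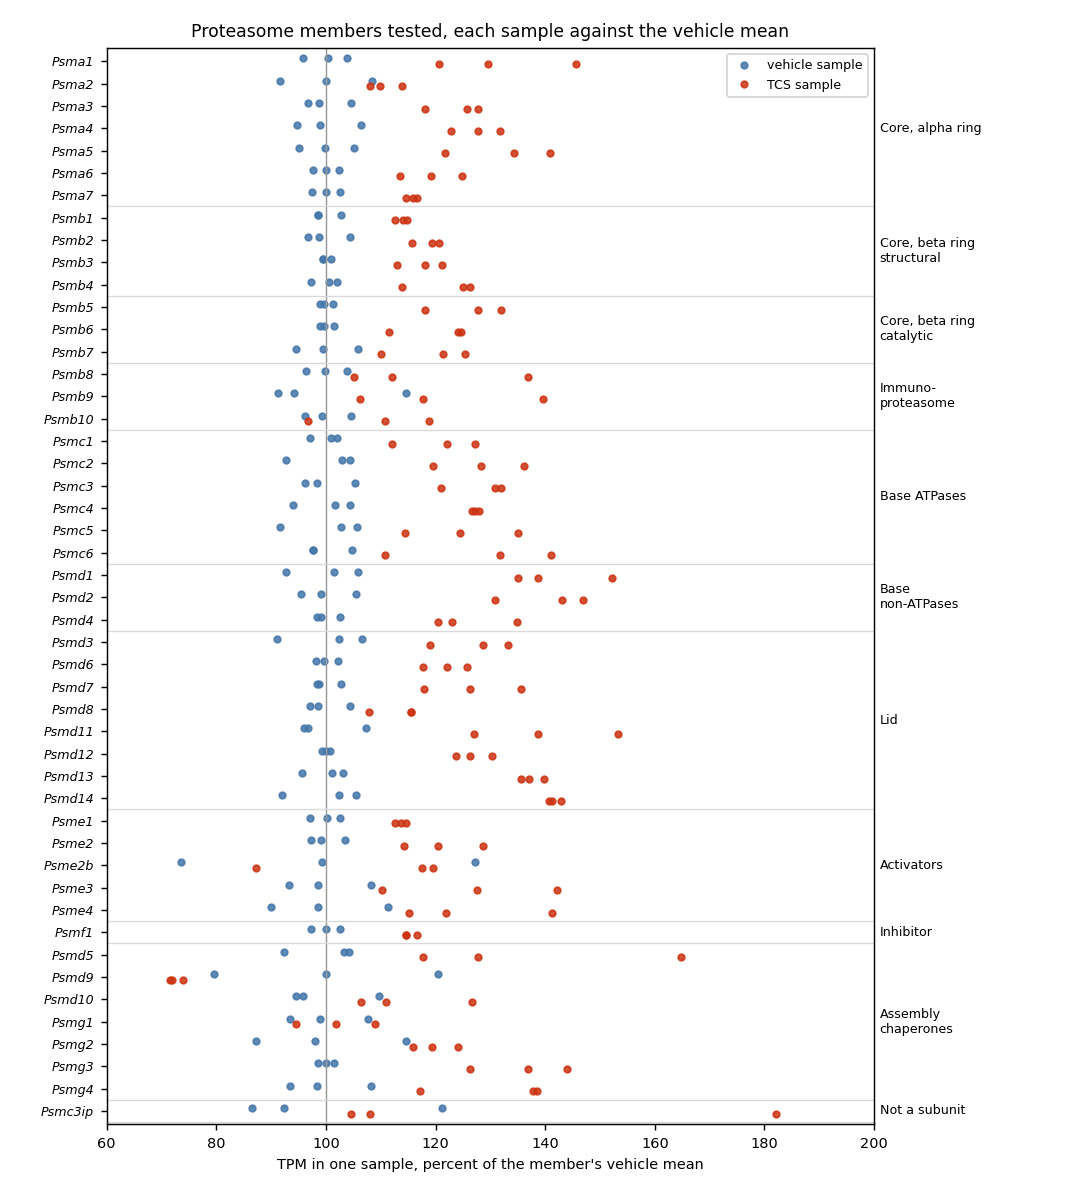
TPM of the 48 members tested in each sample, on the x axis as a percent of the member's mean over the 3 vehicle samples (vertical line), with 1 point per sample and members grouped by their place in the complex. Points of TCS samples lie to the right of all vehicle points for 40 members and to the left of them for Psmd9 alone.

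TPM are shares, so the value of a gene also depends on the other transcripts. When the samples were rescaled by median-of-ratios factors, the median of all genes moved from 0.13 to -0.00 (log2) and that of the members from 0.29 to 0.14. The distance of the members from the other genes was then 0.14. After this rescaling 27 of the 48 members (56.2%) had every TCS sample above every vehicle sample, against 11.7% of all genes, and 1 had every TCS sample below, against 12.5% of all genes. At an unadjusted p under 0.05 from limma the rescaled values gave 19 members higher (8.25% of all genes) and 1 lower (8.81% of all genes). The adjusted test called 0 in either direction, against 0.0752% and 0.143% of all genes. In single samples, the median of the members minus that of all genes was 0.02, -0.02 and 0.01 in the vehicle samples and 0.15, 0.17 and 0.14 in the TCS samples, on the log2 scale against the vehicle mean. The gap between the groups was larger than the spread within them (SD 0.0204). Without vehicle sample 3 and TCS sample 2, the pools with the most Xist and pancreatic RNA, 44 of the 48 members lay above vehicle in every TCS sample left (42.4% of all genes) and the distance from all genes was 0.17.

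**Figure D2:**
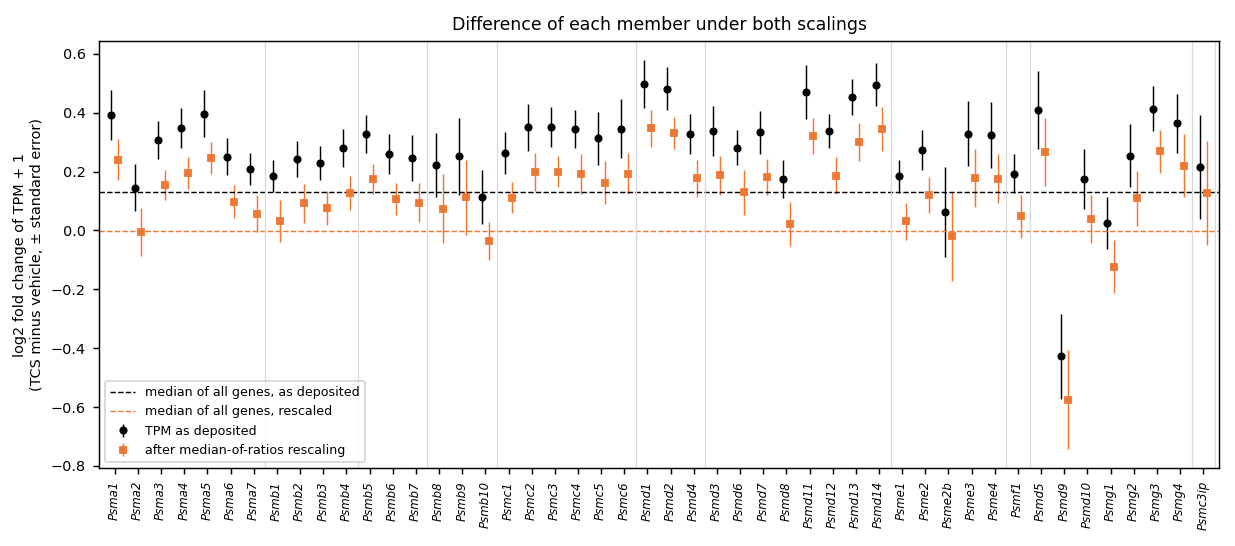
Log2 fold change of TPM + 1 (TCS minus vehicle, y axis, with limma's standard error as bars) for each member tested, from the TPM as deposited (circles) and after median-of-ratios rescaling (squares). Dashed lines mark the median of all genes tested under each scaling, 0.13 and -0.00. The base gene Psmd1 and the lid gene Psmd14 lie farthest above the lines (both 0.50 as deposited), and Psmd9 lies below both lines.

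Levels differed between members much more than between groups. TPM is corrected for length, so levels were set side by side between genes. The methods kept only uniquely aligned reads, and the step that made the TPM is not described. The part of either in the differences between genes was not tested. In vehicle livers the 14 subunits of the standard 20S core ranged from 43.7 TPM for Psma2 to 159.7 TPM for Psmb6, a 3.66-fold range, although the assembled barrel holds each in equal number. The coefficient of variation across these 14 was 31.8% in vehicle and 31.3% in TCS. Of the 19S particle, the name rule leaves out the subunits Adrm1 and Sem1. The 17 subunits that it finds spanned a narrower range, from 39.0 TPM for Psmd3 to 91.8 TPM for Psmc3 (2.36-fold). Their coefficient of variation was 22.8% in vehicle and 20.03% in TCS. In each sample the immunoproteasome genes lay below all 14 core genes. The assembly chaperones among the members lay below all member subunits of the core and the 19S particle. Pomp, a maturation factor of the core outside the name rule, did not, at 147.7 TPM in vehicle and 180.0 TPM in TCS by the means. Within the vehicle group, sample 3 was the highest for 31 of the 48 members tested (44.9% of all genes tested) and sample 2 the lowest for 28 (38.8% of all genes). Within the TCS group, sample 3 was the highest for 28 members and sample 1 the lowest for 27, shares near the 53.9 and 55.2% of all genes.

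**Figure D3:**
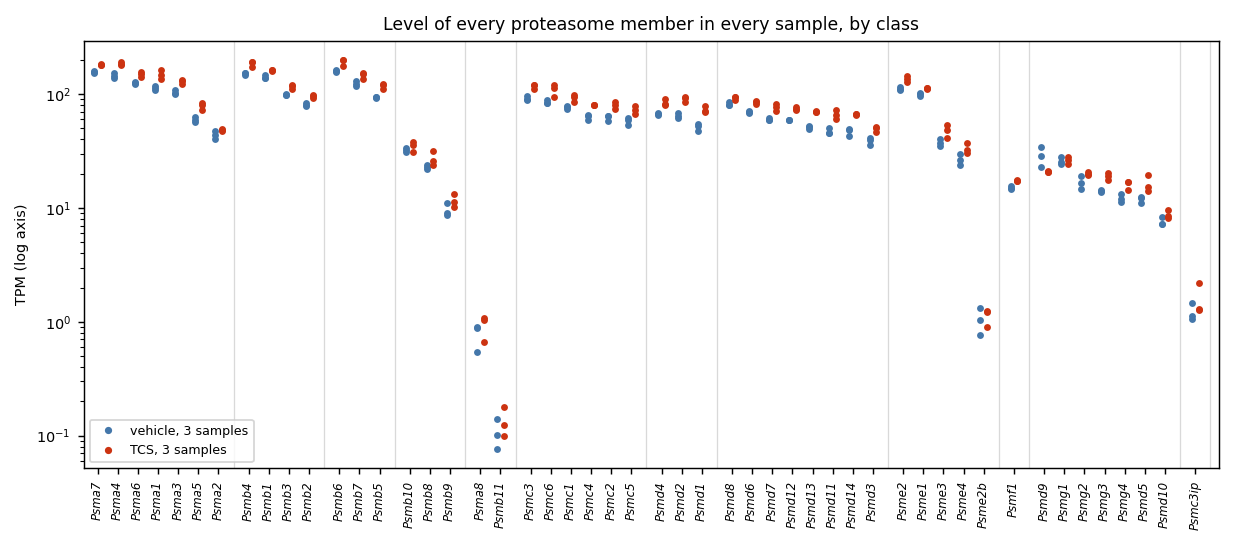
TPM (log axis) of all 50 members in each of the 6 samples, ordered within each class by mean level, with vehicle samples in blue and TCS samples in red. Core and 19S members lie between 35.5 and 199 TPM, the chaperones among the members between 7.19 and 34.7 TPM, and Psma8 and Psmb11 near or under 1 TPM.

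The 7 alpha ring genes, which form the outer gates of the core, summed to 734.6, 734.8 and 772.2 TPM in vehicle and 883.6, 922.4 and 955.5 TPM in TCS. Of the 7, 6 lay above vehicle in every TCS sample. Psma7 (alpha 4) was the most abundant in vehicle, at 157, 153 and 161 TPM, and was 182, 183 and 180 TPM in TCS. Its samples did not overlap and hardly varied within a group, with a log2 fold change of 0.21 ± 0.05 (SE, limma adjusted p = 0.117). In TCS the mean of Psma4 (alpha 3) was slightly higher, at 185.7 TPM against 181.7 TPM. Psma5 (alpha 5) had the largest difference of the ring. It was 56.9, 59.8 and 62.9 TPM in vehicle and 72.9, 80.4 and 84.3 TPM in TCS, again without overlap, with a log2 fold change of 0.40 ± 0.08 (SE, limma adjusted p = 0.0910). Psma1 (alpha 6) was close to it, at 112.7 ± 4.51 and 148.7 ± 14.2 TPM (SD, n = 3). The exception was Psma2 (alpha 2), the least abundant of the ring. It was 43.7, 40.0 and 47.3 TPM in vehicle and 49.7, 48.0 and 47.2 TPM in TCS, so that 1 TCS sample lay within the vehicle range, and after rescaling its log2 fold change was -0.005.

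Of the beta ring, the 4 structural genes Psmb1, Psmb2, Psmb3 and Psmb4 all lay above vehicle in every TCS sample. They summed to 480.7, 464.7 and 475.9 TPM in vehicle and 543.3, 569.4 and 563.4 TPM in TCS, a 1.18-fold difference of the means. Psmb4 (beta 7) was both the most abundant and the most different, at 155, 148 and 153 TPM in vehicle and 173, 192 and 190 TPM in TCS. Its log2 fold change was 0.28 ± 0.07 (SE, limma adjusted p = 0.104). After rescaling, 2 of the 4 genes, Psmb3 and Psmb4, still had no overlap.

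The 3 constitutive catalytic genes were higher in every TCS sample. Psmb5 (beta 5, chymotrypsin-like; chr14:54614119-54618022, minus strand) was 93.0, 93.7 and 95.3 TPM in vehicle and 111, 120 and 124 TPM in TCS. The vehicle samples lay within a few TPM of each other and well below the TCS samples, and the log2 fold change was 0.33 ± 0.07 (SE, limma adjusted p = 0.0891). Psmb6 (beta 1, caspase-like; chr11:70525367-70527858, plus strand) was the most abundant member in vehicle livers, at 158, 159 and 162 TPM, and was 178, 198 and 199 TPM in TCS. For Psmb6 the groups were apart with a log2 fold change of 0.26 ± 0.07 (SE, limma adjusted p = 0.114). Psmb7 (beta 2, trypsin-like; chr2:38588036-38644087, minus strand) was 117, 131 and 123 TPM in vehicle and 136, 150 and 155 TPM in TCS. The lowest TCS sample of Psmb7 lay close to the highest vehicle sample, and the log2 fold change was 0.25 ± 0.08 (SE, limma adjusted p = 0.148). After rescaling Psmb5 and Psmb6 still had no overlap, whereas Psmb7 did. The locus of Psmb7 overlaps on the other strand with Nek6, a mitotic kinase at 20 ± 2.02 TPM in vehicle and 32.2 ± 2.29 TPM in TCS (SD, n = 3).

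The immunoproteasome genes were less abundant and their groups overlapped or nearly touched. Psmb8 (beta 5i; chr17:34197721-34201454, plus strand), the counterpart of Psmb5, was 23.8, 22.1 and 22.9 TPM in vehicle and 25.7, 31.4 and 24.1 TPM in TCS. Every TCS sample of Psmb8 was above vehicle, but the lowest by a margin smaller than the spread within either group (log2 fold change 0.22 ± 0.11 SE, limma adjusted p = 0.269). Psmb9 (beta 1i; chr17:34181987-34187764, minus strand), the counterpart of Psmb6, was 8.76, 9.03 and 11 TPM in vehicle and 11.3, 13.4 and 10.2 TPM in TCS. For Psmb9, 1 TCS sample lay within the vehicle range (log2 fold change 0.25 ± 0.13 SE, limma adjusted p = 0.289). Psmb10 (beta 2i; chr8:105935735-105938444, minus strand), the counterpart of Psmb7, was 32.1, 31.1 and 33.8 TPM in vehicle and 31.3, 35.8 and 38.4 TPM in TCS. The Psmb10 groups overlapped, with a log2 fold change of 0.11 ± 0.09 (SE, limma adjusted p = 0.477) that became -0.04 after rescaling. By its GENCODE coordinates the start of Psmb9 overlaps that of Tap1, the peptide transporter of antigen presentation, on the other strand. Tap1 was 6.28, 6.16 and 7.51 TPM in vehicle and 8.80, 10.5 and 8.60 TPM in TCS.

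Each immunoproteasome subunit takes the place of a constitutive one, so the pair was compared within each sample. The percentages that follow do not depend on scaling. The log2 ratios were taken of TPM + 1, so they can move with scaling. Psmb8 was 25.6, 23.6 and 24.0% of Psmb5 in vehicle and 23.2, 26.2 and 19.4% in TCS. Psmb9 was 5.54, 5.68 and 6.79% of Psmb6 in vehicle and 6.35, 6.77 and 5.13% in TCS. Psmb10 was 27.4, 23.7 and 27.5% of Psmb7 in vehicle and 23.01, 23.9 and 24.8% in TCS. All 3 ratios overlapped between the groups. The log2 ratios differed by -0.11 for Psmb8 (exact two-sided permutation p = 0.5), by -0.01 for Psmb9 (exact p = 1) and by -0.13 for Psmb10 (exact p = 0.3), and adjusted over the 3 ratios the lowest p was 0.75. With 3 samples per group the smallest p this exact test can give is 0.1. The 3 immunoproteasome genes together held 14.9, 13.96 and 15.1% of the TPM of the 6 catalytic genes in vehicle and 13.8, 14.7 and 13.2% in TCS. A difference in this makeup was not detectable with these samples.

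The 6 ATPases of the 19S base, which form the ring that unfolds substrates, all lay above vehicle in every TCS sample, and all 6 did so after rescaling too. Psmc3 (Rpt5) was the most abundant and by a small margin the most different. It was 88.3, 90.3 and 96.7 TPM in vehicle and 111, 121 and 120 TPM in TCS, without overlap, with a log2 fold change of 0.35 ± 0.07 (SE, limma adjusted p = 0.0882). The other 5 had log2 fold changes between 0.26 (Psmc1) and 0.35 (Psmc2). Psmc4 (Rpt3) had the smallest spread of the 6 in TCS but not in vehicle, at 80.6 ± 0.404 and 63.3 ± 3.41 TPM (SD, n = 3). The ring as a whole summed to 440.4, 419.3 and 455.0 TPM in vehicle and 514.3, 560.7 and 582.5 TPM in TCS.

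The 3 non-ATPase members of the base had the highest median log2 fold change of any class with more than 1 gene, 0.48, which is 0.35 above that of all genes tested. Psmd2 (Rpn1), the scaffold that receives shuttle factors carrying ubiquitinated proteins, was 64.2, 61.8 and 68.3 TPM in vehicle and 84.8, 92.7 and 95.2 TPM in TCS. The groups were far apart relative to their spread (log2 fold change 0.48 ± 0.07 SE, limma adjusted p = 0.0695). Psmd1 (Rpn2), the other large scaffold, was 52.2, 47.7 and 54.5 TPM in vehicle and 69.5, 71.4 and 78.3 TPM in TCS. It had the largest difference of all members, a log2 fold change of 0.50 ± 0.08 (SE, limma adjusted p = 0.0805). Psmd4 (Rpn10), a receptor for ubiquitin chains and the most abundant of the 3 in vehicle but not in TCS, was 66.5, 68.8 and 66.1 TPM in vehicle and 80.9, 82.6 and 90.5 TPM in TCS. All 3 genes had no overlap after rescaling.

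All 8 lid members lay above vehicle in every TCS sample, and 6 of them after rescaling, Psmd6 and Psmd8 being the exceptions. The lid subunit Sem1 is outside the name rule and is given below. Psmd14 (Rpn11; chr2:61711694-61800376, plus strand), the metalloprotease that cuts ubiquitin from the substrate, was 48.2, 43.3 and 49.6 TPM in vehicle and 67.2, 66.2 and 66.4 TPM in TCS. The TCS samples were nearly equal, and the log2 fold change was 0.50 ± 0.07 (SE, limma adjusted p = 0.0618). Psmd13 (Rpn9), a structural lid subunit, was 52.9, 49.1 and 51.9 TPM in vehicle and 70.3, 69.6 and 71.7 TPM in TCS. It came closest to the threshold, with a log2 fold change of 0.45 ± 0.06 (SE, limma adjusted p = 0.0558), and passed at 0.0462 when genes under 5 TPM were left out. The start of its locus overlaps that of Sirt3, on the other strand, which was 71.4 ± 10.2 TPM in vehicle and 66.2 ± 1.27 TPM in TCS (SD, n = 3). Psmd11 (Rpn6), which clamps the lid to the core, was 45.9, 45.6 and 50.9 TPM in vehicle and 60.3, 65.8 and 72.8 TPM in TCS (log2 fold change 0.47). At the other end was Psmd8 (Rpn12), the most abundant lid gene. It was 80.8, 79.7 and 85.6 TPM in vehicle and 94.7, 94.8 and 88.5 TPM in TCS, with a log2 fold change of 0.17 ± 0.06 (SE, limma adjusted p = 0.185).

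Relative to the core, the members of the regulatory particle stood higher in every TCS sample than in any vehicle sample. The 14 core genes averaged 113.1, 113.1 and 116.3 TPM per subunit in vehicle and 132.3, 140.0 and 142.6 TPM in TCS. The 17 members of the 19S particle, without Adrm1 and Sem1, averaged 63.5, 61.2 and 65.5 TPM per subunit in vehicle and 77.8, 81.7 and 84.6 TPM in TCS. By their sums the core was 1.21-fold and the 19S particle 1.28-fold higher in TCS. The level of a 19S subunit was thus 56.2, 54.1 and 56.3% of that of a core subunit in vehicle and 58.8, 58.3 and 59.3% in TCS. This ratio is taken within a sample and does not depend on scaling. The groups did not overlap in it, and no test was made of it since it sums over members. The ratio was not computed with Adrm1 and Sem1, and the groups overlapped in Sem1.

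**Figure D4:**
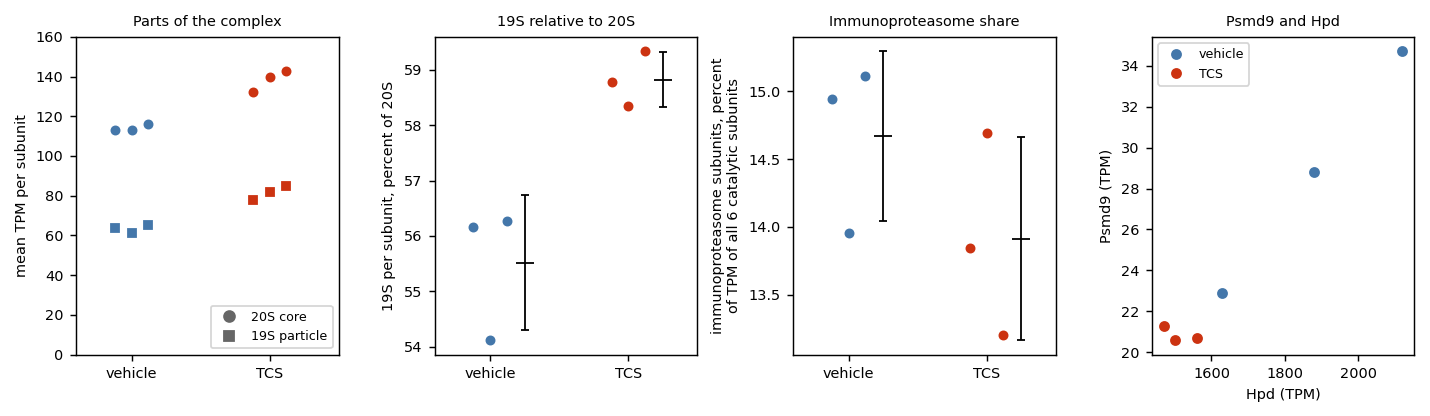
From left to right: mean TPM per subunit of the 20S core (circles) and 19S particle (squares), the 19S level as a percent of the 20S level per subunit, the immunoproteasome genes as a percent of the TPM of all 6 catalytic genes, and Psmd9 TPM against Hpd TPM, with 1 point per sample (bars in both middle panels show mean ± SD, n = 3; their y axes do not start at 0). The 19S percentage, from the members alone, lies between 54.1 and 56.3 in vehicle and between 58.3 and 59.3 in TCS. The immunoproteasome share overlaps between the groups.

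The activators open the core without the 19S particle. Psme1 and Psme2 (PA28 alpha and beta), which form one interferon-inducible cap, were the most abundant. Psme2 was 109, 111 and 116 TPM in vehicle and 128, 144 and 135 TPM in TCS, without overlap, with a log2 fold change of 0.27 ± 0.07 (SE, limma adjusted p = 0.111). Psme1 was 99.4 ± 2.71 and 113.0 ± 1.00 TPM (SD, n = 3), also without overlap before rescaling but not after it. Psme3 (PA28 gamma), the nuclear activator, had the largest difference of the class, at 37.1, 35.1 and 40.7 TPM in vehicle and 48.0, 41.5 and 53.5 TPM in TCS. Its TCS samples varied widely and the lowest was close to the highest vehicle sample (log2 fold change 0.33 ± 0.11 SE, limma adjusted p = 0.162). Psme4 (PA200) was 26.2, 23.9 and 29.6 TPM in vehicle and 30.6, 32.4 and 37.5 TPM in TCS. Psme2b, a copy of Psme2 whose reads may be shared with it, was 1.04 ± 0.279 and 1.12 ± 0.187 TPM and overlapped. Psmf1 (PI31), first described as an inhibitor of the core, was 15.1, 15.5 and 14.7 TPM in vehicle and 17.3, 17.3 and 17.6 TPM in TCS. Its samples varied by well under 1 TPM in both groups (log2 fold change 0.19 ± 0.07 SE, limma adjusted p = 0.167), and they overlapped after rescaling.

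The 7 assembly chaperones that the name rule finds were the least uniform class. Of these, 4 lay above vehicle in every TCS sample, Psmd9 lay below, and Psmd10 and Psmg1 overlapped. Among the chaperones of the core, Psmg3 was 14.1, 13.9 and 14.3 TPM in vehicle and 19.3, 17.8 and 20.3 TPM in TCS (log2 fold change 0.41 ± 0.08 SE, limma adjusted p = 0.0866). Its partner Psmg4 was 12.2 ± 0.917 and 16.0 ± 1.47 TPM (SD, n = 3). Psmg1, which with Psmg2 starts the alpha ring, was the most abundant of the core's chaperones among the members. The more abundant Pomp is outside the name rule and is given below. Psmg1 was 24.2, 25.6 and 27.9 TPM in vehicle and 28.2, 24.5 and 26.4 TPM in TCS. The Psmg1 groups covered the same range, and its log2 fold change of 0.02 ± 0.09 (SE, limma adjusted p = 0.877) became -0.12 after rescaling. Psmg2 itself was 16.8 ± 2.32 and 20.2 ± 0.702 TPM (SD, n = 3), without overlap. Among the chaperones of the base, Psmd5 was 12.3, 11 and 12.4 TPM in vehicle and 15.2, 14 and 19.6 TPM in TCS, and Psmd10 (gankyrin) was 7.61 ± 0.643 and 8.73 ± 0.809 TPM (SD, n = 3).

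Psmd9 (p27), the remaining chaperone of the base, lay below vehicle in every TCS sample. It was 28.8, 34.7 and 22.9 TPM in vehicle and 21.3, 20.6 and 20.7 TPM in TCS. The vehicle samples were spread over a wide range and the TCS samples lay together just below its lower end. Its log2 fold change was -0.43 ± 0.15 (SE, limma unadjusted p = 0.0237 and adjusted p = 0.165), and -0.57 after rescaling. Psmd9 (chr5:123169413-123250131, plus strand) contains within its span the whole of Hpd (chr5:123171807-123182727, minus strand), an enzyme of tyrosine breakdown that is abundant in liver. Hpd was 1880, 2120 and 1630 TPM in vehicle and 1470, 1500 and 1560 TPM in TCS, a log2 difference of -0.31 (limma adjusted p = 0.164). The order of the vehicle samples was the same in both genes, but that of the TCS samples was not. TCS sample 1 had the highest Psmd9 and the lowest Hpd of its group. Psmd9 was between 1.33 and 1.64% of Hpd in every sample. The annotated exons of the 2 genes share 0 bases. The methods describe strand-specific counting over exons for FPKM, whereas the handling of strand and intronic reads in the TPM is not described, and the part of Hpd reads in the Psmd9 values was not tested. Psma4, Psmc3, Psmd1, Psme1, Psmd5 and Psmc3ip also overlap a gene on the other strand (AY074887, Slc39a13, Htr2b, Emc9, Cutal and Mlx). Psma2 (AW209491), Psmd1 (Gm21972), Psmg3 (Gm26938) and Psme2b (Gm12185 and 9930111J21Rik1) overlap a coding gene on the same strand. The part of these overlaps in the values was not tested.

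Psma8 and Psmb11 are forms of the core in other tissues and were not tested. Psma8, the alpha subunit of the testis, was 0.54 to 0.896 TPM in vehicle and 0.67 to 1.08 TPM in TCS. Psmb11, the beta subunit of the thymus, was 0.0765 to 0.14 TPM in vehicle and 0.10 to 0.18 TPM in TCS. Psmc3ip fits the rule by its name but is a meiotic recombination factor and no subunit. It was 1.21 ± 0.225 and 1.60 ± 0.532 TPM (SD, n = 3) and overlapped. The 5 pseudogenes of members in the table reached at most 0.363 TPM (Psmb7-ps2).

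Genes of the complex that the name rule leaves out gave a mixed picture, and 0 of the 7 found passed the adjusted test, while 3 were higher and 0 lower at an unadjusted p under 0.05. Of all genes tested, 19.5% were higher and 3.5% lower at that threshold, the background for each list that follows. Pomp, the maturation factor of the beta ring, was 152, 134 and 157 TPM in vehicle and 175, 177 and 188 TPM in TCS, without overlap (log2 fold change 0.29 ± 0.08 SE, limma adjusted p = 0.127). Adrm1 (Rpn13), a ubiquitin receptor of the base, was 45.7, 52.3 and 42.8 TPM in vehicle and 58.3, 55.4 and 58.8 TPM in TCS, also without overlap as deposited but with overlap after rescaling. Sem1 (Rpn15), the smallest lid subunit, was 59.5, 54.3 and 60.9 TPM in vehicle and 61.2, 64.1 and 57.7 TPM in TCS. The Sem1 groups overlapped, unlike those of the 8 lid members, and its log2 fold change of 0.07 became -0.08 after rescaling. Usp14, a deubiquitinase that docks on Psmd2 and was chosen after its values were seen, was 28.9, 28.7 and 30.2 TPM in vehicle and 32.0, 36.6 and 43.8 TPM in TCS. The median log2 fold change of the 7 was 0.18, which is 0.05 above that of all genes.

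Upstream of the proteasome, the genes of ubiquitin and its activation (13 genes) had a median log2 fold change 0.01 above that of all genes, with 0 past the adjusted test, 3 higher at an unadjusted p under 0.05 (19.5% of all genes) and 0 lower. Ubb, a polyubiquitin gene (chosen after its values were seen), was 476.0 ± 27.6 and 480.0 ± 13.9 TPM (SD, n = 3). The fusion gene Rps27a, which carries ubiquitin on a ribosomal protein, was 524.0 ± 23.1 and 545.7 ± 25.2 TPM (SD, n = 3). Of the 14 genes that bring substrates to the proteasome, 4 were higher at an unadjusted p under 0.05 (19.5% of all genes), 0 were lower and 0 passed the adjusted test. The 4 were Rad23b, Ubqln1, Vcp and Nsfl1c, the other 3 than Vcp being named after their values were seen. Vcp (p97), the ATPase that pulls ubiquitinated proteins from membranes and complexes, was 141, 149 and 155 TPM in vehicle and 184, 196 and 222 TPM in TCS (log2 fold change 0.43 ± 0.09 SE, limma adjusted p = 0.0922). Ubxn1, the most abundant of the list after Vcp, was 89.1 ± 1.64 and 93.1 ± 3.81 TPM (SD, n = 3) and overlapped. Its log2 fold change was 0.06, below the 0.13 of the median gene. Rad23b, a shuttle factor for ubiquitinated proteins, was 45.2 ± 2.71 and 61.5 ± 0.954 TPM (SD, n = 3) without overlap.

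In ER-associated degradation, which delivers misfolded proteins of the endoplasmic reticulum to the proteasome, 3 of 17 genes were higher at an unadjusted p under 0.05, no larger a share than the 19.5% of all genes, 1 was lower and 0 passed the adjusted test. The lower one was Herpud1, a membrane protein of the degradation complex that ER stress induces, at 341, 361 and 302 TPM in vehicle and 251, 227 and 224 TPM in TCS. The Herpud1 groups were far apart in the direction opposite to the proteasome (log2 fold change -0.51 ± 0.09 SE, limma adjusted p = 0.0847). With protein-coding genes tested alone it passed, at an adjusted p of 0.0465 from limma. Os9, a lectin that recognizes misfolded glycoproteins, was 101.2 ± 3.06 and 99.6 ± 2.08 TPM (SD, n = 3). The median of the 17 genes was 0.02 below that of all genes (relative log2 fold change -0.02).

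Among 15 regulators of proteasome genes, 3 were higher at an unadjusted p under 0.05, a share near the 19.5% of all genes, 1 was lower and 0 passed the adjusted test. Nfe2l1 (NRF1), the factor that raises proteasome genes when the activity is short, was 30.8, 39.3 and 33.6 TPM in vehicle and 41.2, 49.2 and 48.2 TPM in TCS. The groups did not overlap, although the highest vehicle sample came near the lowest TCS sample (log2 fold change 0.41 ± 0.12 SE, limma adjusted p = 0.128). After rescaling the Nfe2l1 groups overlapped and its log2 fold change was 0.26. Nfe2l2 (NRF2), its relative that responds to oxidants, was 28.9, 36.2 and 30.8 TPM in vehicle and 38.2, 35.9 and 37.1 TPM in TCS, with overlap (log2 fold change 0.21 ± 0.10 SE, limma adjusted p = 0.241). Ddi2, the protease that activates NRF1 protein, was 42.4 ± 1.36 and 48.0 ± 3.86 TPM (SD, n = 3). Stat3, the most abundant of the list, was 47.8 ± 5.88 and 44.9 ± 1.25 TPM (SD, n = 3) and overlapped (log2 fold change -0.08). The other genes past the unadjusted threshold, named after their values were seen, were Keap1 and Nfyb on the higher side, which also overlapped after rescaling, and Maff on the lower. Maff, a small partner of NRF1 and NRF2, was 6.95, 9.82 and 5.16 TPM in vehicle and 3.01, 2.78 and 2.88 TPM in TCS (log2 fold change -1.06 ± 0.20 SE, limma adjusted p = 0.0875). RNA levels of these factors do not measure their activity.

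The enzymes controlled by NRF2 had the highest median of the pathway lists, a log2 fold change of 0.55, which is 0.42 above that of all genes and above the median of the proteasome members. Of 12 tested, 8 were higher at an unadjusted p under 0.05 (19.5% of all genes), 0 were lower and 0 passed the adjusted test. Gstm3, a glutathione transferase, was 51.5, 167 and 58.2 TPM in vehicle and 191, 301 and 243 TPM in TCS. Vehicle sample 2 lay far above the other vehicle samples but below all TCS samples (log2 fold change 1.59 ± 0.45 SE, limma adjusted p = 0.130). Without that sample Gstm3 passed the test, with a log2 fold change of 2.12 and an adjusted p of 0.0401 from limma. Gstm1, the most abundant of the list, was 834, 1690 and 1120 TPM in vehicle and 1680, 1880 and 1750 TPM in TCS, and the groups overlapped.

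The immunoproteasome genes were set beside 19 genes of interferon-linked antigen processing. Of these, 4 were higher at an unadjusted p under 0.05, a share near the 19.5% of all genes, 1 was lower, 0 passed the adjusted test, and the median was 0.04 above that of all genes. Irf1, the factor that induces Psmb8, Psmb9 and Psmb10 under interferon, was 17, 16.2 and 14.4 TPM in vehicle and 22.8, 25.7 and 25.6 TPM in TCS. The Irf1 groups were far apart (log2 fold change 0.61 ± 0.09 SE, limma adjusted p = 0.0651), and it passed at 0.0346 with protein-coding genes tested alone. Tap1 had a log2 fold change of 0.43 ± 0.12 (SE, limma adjusted p = 0.121). B2m, the light chain of class I molecules, was 1660, 1690 and 1680 TPM in vehicle and 1730, 1710 and 1540 TPM in TCS, with the groups overlapping. Calr, the most abundant of the list after B2m, was 784.7 ± 135.4 and 823.7 ± 81.3 TPM (SD, n = 3) and overlapped (log2 fold change 0.08). H2-T23, a nonclassical class I gene named after its values were seen, was the lower one, at 160.3 ± 6.51 and 131.7 ± 8.02 TPM (SD, n = 3).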

How the data were processed

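Liver RNA was analyzed in 6 pools of 3 mice, 3 per group, which were grouped by the treatment in the sample labels. According to the methods and the submitters' processing notes, bases were called with bcl2fastq 2.17.1.14, reads were aligned to mm10 with STAR 2.2.0c, and uniquely aligned reads were counted strand-specifically with HOMER as FPKM over RefSeq exons. The table used here was deposited by the authors as TPM under Ensembl identifiers, rounded to 3 significant digits, and the step that made it is not described. Its columns carry the group and a number, which no label ties to one sample. A second deposited table holds the authors' log2 fold changes and adjusted p-values and was not used. The methods state that the pups of each group came from more than a single litter, but not which litters entered which pool. TCS was fed to the mothers, so p-values measure the spread between these pools and not between exposed mothers.

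Tested genes had 1 TPM or more in 3 or more samples. The test was that of limma 3.58.1 in R 4.3.3 on log2(TPM + 1) (moderated test with variance trend, Benjamini-Hochberg adjustment over all 13325 genes, threshold 0.05). The script was tested on simulated data. Fold changes understate differences of genes near 1 TPM. Members and lists were chosen with earlier results of these data known. Values in every sample were given for the catalytic and immunoproteasome genes and for the most abundant and most different member of each other class. From each pathway list the rule chose the 2 genes with the highest mean TPM and any gene past the threshold. Nfe2l1, Nfe2l2, Adrm1, Sem1, Pomp, Tap1 and Irf1 were always included. Further genes are marked where they were picked by their values. A gene under this rule is not reported here. Alternatives were another pseudocount (0.1), a filter at 5 TPM or none, median-of-ratios rescaling, quantile normalization, no trend, array weights, an Xist covariate, protein-coding genes alone and each pool left out. For protein-coding genes alone, their TPM were first rescaled to the same sum in every pool. Fits on 2 subsets of pools were added after seeing the data. Coordinates are from GENCODE M21 (GRCm38) and promoters from RefSeq (GRCm38.p6).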

Additional observations from a re-analysis of the deposited data

How the results depend on the processing

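Depth is unknown and the groups hold 3 pools each, so differences of a few percent cannot be resolved. The count of members higher at an adjusted p under 0.05 from limma (0 as reported) was 1 with a filter at 5 TPM, 31 with array weights and 5 with protein-coding genes alone. It was 0 under the other alternatives. The distance of the members' median from that of all genes was 0.24 with no filter, and 0.19 in vehicle sample 2 and TCS sample 1 alone, the pools with the least Xist, a choice made after seeing the data. When each pool was left out in turn, this distance lay between 0.14 and 0.18, the members above vehicle in every TCS sample between 40 and 43, those below between 1 and 1, and the adjusted calls were 0 to 0 in both directions. In the same fits the difference in the log2 ratio of Psmb10 to Psmb7 lay between -0.20 and -0.099, of Psmb8 to Psmb5 between -0.20 and 0.0047 (without TCS sample 3), and of Psmb9 to Psmb6 between -0.082 and 0.10 (without TCS sample 3). The Psmb9 ratio also turned positive at 0.074 without vehicle sample 3 and at 0.012 with a pseudocount of 0.1. Log2 fold changes of single genes that turned sign were small. After median-of-ratios rescaling these were Psma2 (-0.0050), Psmb10 (-0.036), Psme2b (-0.019), Psmg1 (-0.12), Sem1 (-0.085), Rps27a (-0.095), Ubxn1 (-0.091), Calr (-0.073) and Lamp2 (-0.11). After quantile normalization they were Psmb10 (-0.013), Psme2b (-0.040), Psmg1 (-0.12), Sem1 (-0.058), Ubxn1 (-0.079) and B2m (0.015). With array weights they were Psmg1 (-0.031), B2m (0.019), Calr (-0.071) and Fbxo32 (0.021). Over the fits that leave out pools, Psme2b ranged from -0.077 (without vehicle sample 3 and TCS sample 2) to 0.16, Psmg1 from -0.023 to 0.13, B2m from -0.047 to 0.037 and Calr from -0.058 to 0.19. The cause was not tested. No paired analysis was possible because the numbers of the table's columns are tied to no sample label and no label pairs the pools.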

Other observations

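Autophagy and the lysosome are the other main route of protein breakdown. Of 16 genes of this route, 3 were higher and 4 lower at an unadjusted p under 0.05 (19.5 and 3.5% of all genes), 0 passed the adjusted test, and the median log2 fold change relative to all genes was -0.08. Ctsl, a lysosomal cysteine protease, was 637, 626 and 655 TPM in vehicle and 532, 543 and 555 TPM in TCS, without overlap (log2 fold change -0.23 ± 0.06 SE, limma adjusted p = 0.105). The other lower genes were Map1lc3b, Gabarapl1 and Ulk1, and the higher ones Atg5, Atg7 and Ctsd, all named after their values were seen. Lamp2, a membrane protein of the lysosome, was 351.3 ± 8.33 and 362.7 ± 19.5 TPM (SD, n = 3) and overlapped. The ubiquitin ligases of muscle wasting were near the floor of the table, with Fbxo32 at 0.927 ± 0.163 and 0.793 ± 0.219 TPM and Trim63 at 0.119 to 0.846 TPM across both groups.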
